A study of Homo sapiens with 6 samples.

Results

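The 50 genes described here encode proteins of the small-subunit processome and factors that complete the 40S ribosomal subunit. They were taken as the rows of the deposited table whose symbol matched a list of 50 names, and all 50 were found among 25662 rows. RNA was sequenced from HCT116, a human line from a colorectal carcinoma, grown in McCoy's 5a Medium with FBS. The cells were transfected with a control siRNA (n = 3) or with an siRNA against RRN3 (n = 3, called depleted libraries here), and no other difference between the groups is labelled. The sources used here give neither the siRNA sequences nor the time of harvest. RRN3 couples polymerase I to its initiation complex at the ribosomal RNA genes, and the comparison asks which transcripts change when it is silenced.

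The small-subunit processome is a large particle that forms on the nascent ribosomal RNA precursor in the nucleolus. It folds the precursor with the help of the U3 small nucleolar RNA, frees the 18S ribosomal RNA and hands a pre-40S particle to factors that finish it in the cytoplasm. Genes of this machinery are textbook targets of MYC, which binds the E-box letters CACGTG.

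RRN3 was measured at 20.9, 14.7 and 14.1 TPM in control and 2.70, 1.22 and 0.925 TPM in depleted libraries. TPM is an abundance scaled by transcript length and by the total of a library, so levels of different genes can be set side by side on it. RRN3 fell by 2.79 on the log2(TPM + 1) scale (SE 0.27, limma adjusted p = 0.000301). An exact permutation test (two-sided) gave p = 0.1, the lowest value possible with 3 libraries per group. The epithelial markers were abundant, with 8 of 8 measured and a summed level of 5912 to 7003 TPM in control and 12866 to 14053 TPM in depleted libraries. Of the 8, the keratin genes KRT8, KRT18 and KRT19 rose, KRT8 from 2798 ± 321 to 6409 ± 235 TPM, CLDN3 fell from 19.0 ± 2.06 to 11.7 ± 0.592 TPM and 4 did not pass, and the median log2 change was 0.23. Immune and endothelial markers summed to at most 0.970 and 0.683 TPM in any library. Of 5 fibroblast markers 3 were listed at 0 in every library, and COL1A1 gave nearly all of the sum of 6.78 to 10.4 TPM. All 10 of the proliferation genes listed for reference fell, with a median log2 change of -1.66 and a summed level of 1185 to 1440 TPM in control and 407 to 547 TPM in depleted libraries. MYC rose from 192 ± 26.02 to 258 ± 24.0 TPM (SD, n = 3 per group), and CDKN1A, which encodes the cell cycle inhibitor p21, rose from 319 ± 25.6 to 2120 ± 62.3 TPM. The part of these changes in the results on the 50 genes was not tested. In bulk RNA, fewer cells of a kind and less RNA per cell cannot be told apart.

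Promoter sequence, which the choice of genes did not use, was searched for 3 motifs, and no test of enrichment was made. RefSeq windows (GRCh38.p14, 250 bases before to 50 after the annotated start) were found for 44 of the 50, and DCAF13, DDX49, DDX52, MPHOSPH10, RRP12 and UTP23 had no entry. The E-box CACGTG, which reads the same on both strands, was present in 19 of 44 windows (43.2%), against 10.4% of the 9551 windows of tested genes and 7.43% of all 27305 windows. The ETS-type letters CCGGAAG, searched on both strands, were present in 18 of 44 (40.9%), against 19.9% and 10.7%. The letters CCAAT, also searched on both strands, were present in 15 of 44 (34.1%), against 36.9% and 35.7%. None of the 3 motifs contains another, and a match describes the letters only.

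**Figure D1:**
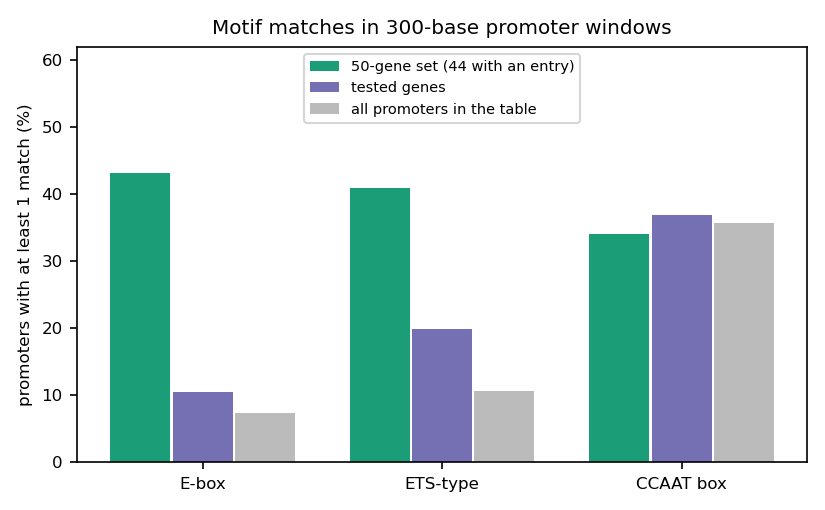
Share of promoter windows (%) with at least 1 match to each of 3 motifs on either strand, for the 44 windows of the gene set, the 9551 of tested genes and all 27305. The E-box share is 43.2% in the gene set against 10.4% of tested genes, and the CCAAT share is 34.1% against 36.9%.

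The E-boxes lay close to the start. Counting the start as 0, 17 of the 19 E-box windows (89.5%) had one that began between -20 and 44, against 225 of the 997 E-box windows of tested genes (22.6%). That interval was chosen after the positions were seen. The stretches below are shown because they hold the E-box, in capitals, in genes that rose (NOL6, RCL1 and PNO1) and in genes that fell (NAT10 and AATF). Each spans 100 bases, from -70 to 29 except for AATF, whose match begins at -157.
NOL6, chr9:33473895-33473994, minus strand: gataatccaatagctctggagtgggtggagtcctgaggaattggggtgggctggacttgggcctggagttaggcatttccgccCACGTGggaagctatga
RCL1, chr9:4792874-4792973, plus strand: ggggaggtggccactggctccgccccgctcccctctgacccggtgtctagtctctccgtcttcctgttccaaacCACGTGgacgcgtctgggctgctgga
PNO1, chr2:68157818-68157917, plus strand: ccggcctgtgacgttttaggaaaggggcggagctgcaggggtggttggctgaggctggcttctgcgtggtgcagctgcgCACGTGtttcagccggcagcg
NAT10, chr11:34105559-34105658, plus strand: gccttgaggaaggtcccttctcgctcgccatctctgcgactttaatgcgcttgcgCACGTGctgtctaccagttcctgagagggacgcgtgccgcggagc
AATF, chr17:36948754-36948853, plus strand: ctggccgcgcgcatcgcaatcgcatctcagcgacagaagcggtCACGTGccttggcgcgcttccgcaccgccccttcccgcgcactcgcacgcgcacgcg

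Genes with the E-box were found in both directions of change. Of the 19 with it, 4 rose and 3 fell, with a median log2 change of 0.06. Of the 25 whose window lacked it, 3 fell and the others did not pass, with a median of 0.07. The 6 genes without a window are in neither group, and of these 2 rose (RRP12 and DDX49) and 0 fell. Of all 997 tested genes with it, 10.8% rose and 20.1% fell, with a median of -0.06. The 4 that rose were NOL6, RCL1, PNO1 and BYSL, whose matches began at 13, 4, 9 and 28. The 3 that fell were AATF, NAT10 and IMP4, the last with matches at -203 and 15.

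Of the 50 genes, 6 rose, 6 fell and 38 stayed short of the threshold. A gene rose or fell if limma on log2(TPM + 1) gave a Benjamini-Hochberg adjusted p under 0.05 over the 12157 genes with a mean of at least 1 TPM, a minimum that all 50 reached. Across all genes tested 11.2% rose and 19% fell, against 12% and 12% of the 50. In this fit the share that rose was thus near the background. The median log2 change of the 50 was 0.09, beside -0.05 over all genes tested, and the middle quartiles ran from -0.13 to 0.34. The groups did not overlap in TPM for 16 of the 50, of which 7 were higher and 9 lower in depleted libraries. Over all genes tested 44.8% did not overlap, with 17.9% higher and 26.9% lower.

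**Figure D2:**
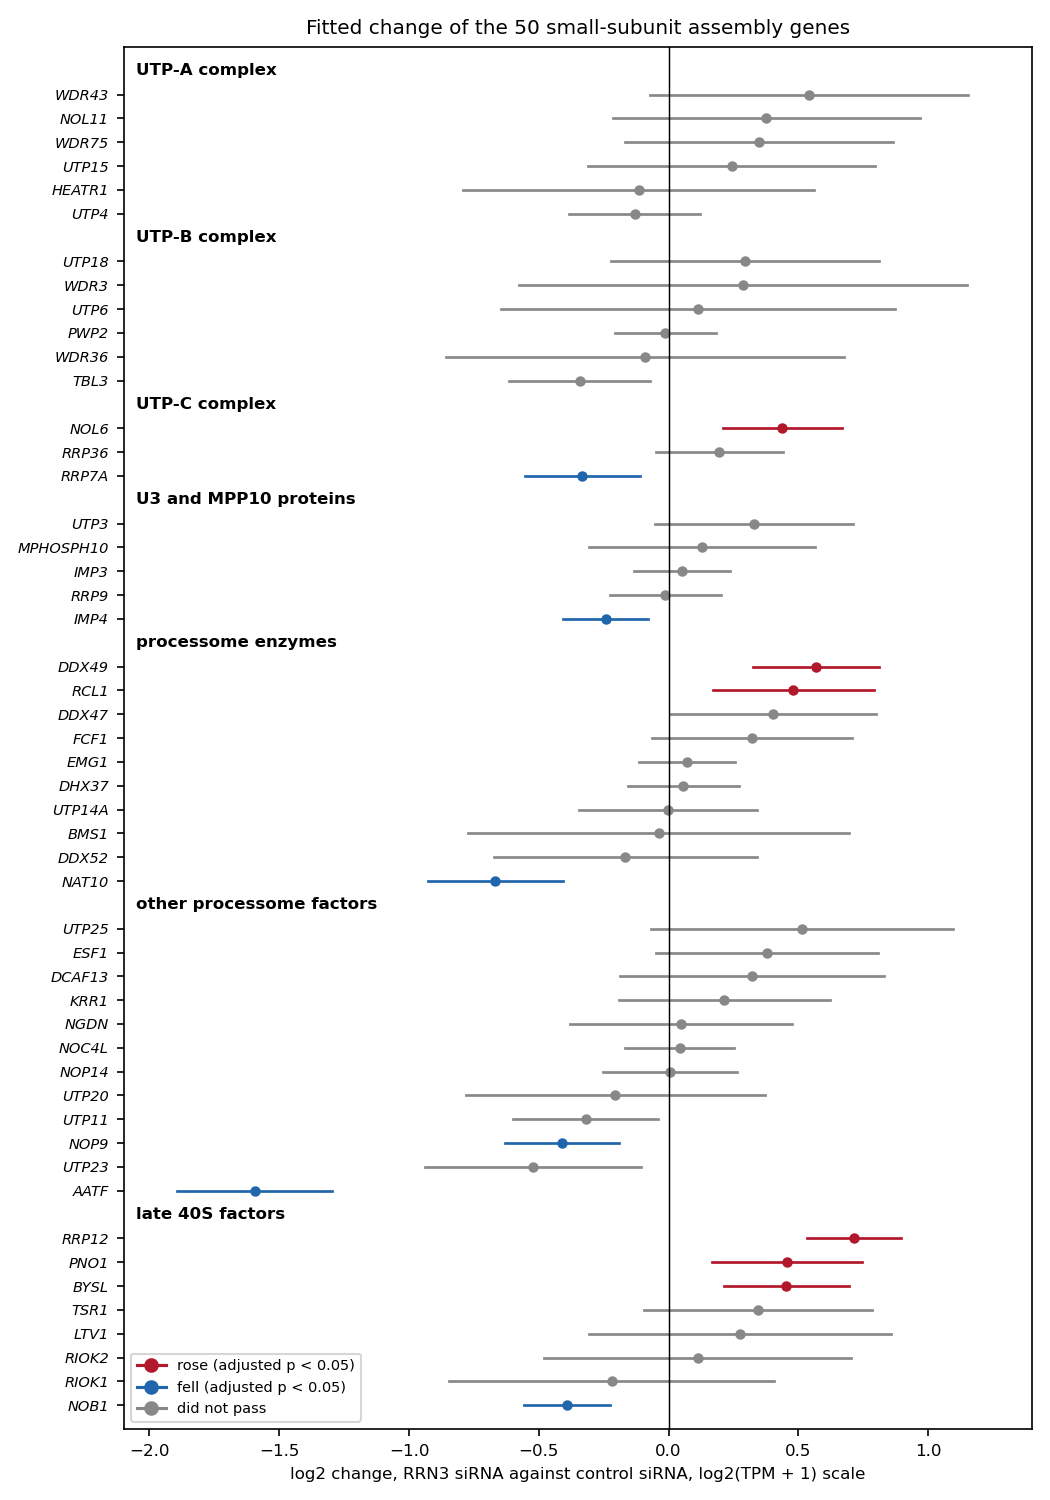
Fitted log2 change of each of the 50 genes (depleted against control, n = 3 per group, log2(TPM + 1) scale), grouped by role, with 95% confidence intervals from limma as lines. AATF stands apart at -1.59, while the other 49 lie between -0.67 and 0.71.

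The counts depended on scaling. With median-of-ratios scaling 12 of the 50 rose and 3 fell, with quantile normalization 12 rose and 5 fell, and with the GC trend of each library removed 18 rose and 6 fell. Over all genes the split moved from 1367 rising and 2312 falling to 2056 and 2034, 2205 and 2284, and 2746 and 2625 in those settings. Risers there increased by a larger factor among the 50 than over all genes. The statement that the rising share was near the background therefore applies to the fit as reported. Without RRN3 siRNA replicate 2, 3 rose and 3 fell, and without RRN3 siRNA replicate 3, 8 rose and 3 fell. Over all genes 788 rose and 1452 fell without the former, and 1273 rose and 1790 fell without the latter. Counts over all genes were thus also lower than the 1367 and 2312 as reported. AATF and NAT10 downward and RRP12 and DDX49 upward kept their calls in all 19 alternatives run.

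**Figure D3:**
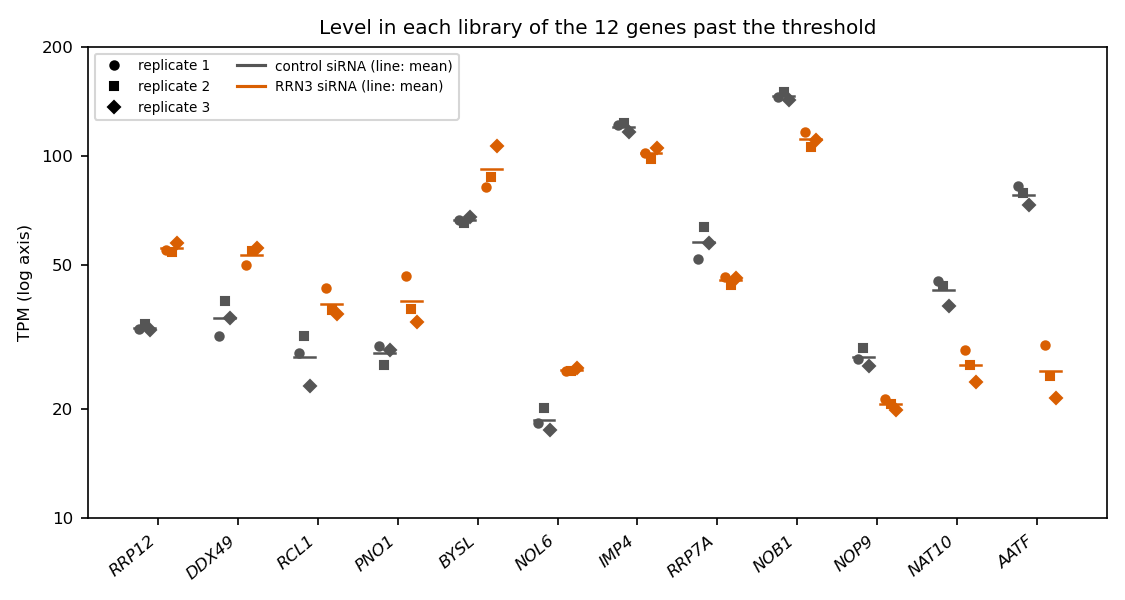
TPM (log axis) of the 12 genes past the threshold in each of the 6 libraries, with marker shape for the replicate, colour for the group and a line at the group mean. The groups do not overlap for any of the 12, and the gap is widest for AATF.

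The UTP-A genes (UTP4, UTP15, HEATR1, WDR43, WDR75 and NOL11) encode the complex that loads first on the precursor and that is also known to act in polymerase I transcription. In limma 0 of the 6 passed and 0 had an unadjusted p under 0.05, and their median log2 change was 0.30. UTP4, the most abundant, was at 113, 98.7 and 95.1 TPM in control and 106, 86.7 and 87.1 TPM in depleted libraries, with overlapping groups. WDR43 had the largest fitted change, 0.54 (95% interval -0.07 to 1.15, limma adjusted p = 0.166). It was at 20.8, 13.9 and 14.8 TPM in control and 36.8, 21.1 and 18.0 TPM in depleted libraries, so 2 of 3 depleted libraries were above every control. WDR43 passed upward in 6 of 19 alternatives, among them removal of the GC trend (adjusted p = 0.00525). HEATR1, a large helical-repeat protein, had means of 7.94 ± 1.34 and 7.73 ± 3.95 TPM, with an interval of -0.79 to 0.56 on the log2 scale. NOL11, WDR75 and UTP15 had log2 changes of 0.38, 0.35 and 0.24.

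Levels within UTP-A were unequal although the proteins act in 1 complex. The control means were 102 TPM for UTP4, 19.0 for NOL11, 16.5 for WDR43, 14.6 for WDR75, 7.94 for HEATR1 and 4.54 for UTP15. NOL11, WDR43 and WDR75 overlapped in their control values, so their order is not separated. UTP4 also had the highest transcript GC content of the 6 (46.3%), and the others had 37.7% to 41.5%. Deviations between libraries went with GC content, as given below. Its part in differences of level between genes was not tested. Across the 50 genes, 6 had a control mean under 5 TPM, 16 had 5 to 20, 17 had 20 to 50 and 11 had 50 or more. NOB1 was the highest and ESF1 the lowest, with 146 ± 4.07 and 0.801 ± 0.283 TPM.

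The UTP-B genes (PWP2, WDR36, TBL3, WDR3, UTP6 and UTP18) encode a complex rich in WD repeats that binds the precursor and the U3 RNA. In limma 0 of the 6 passed and 1 had an unadjusted p under 0.05, and the median log2 change was 0.05. TBL3, the most abundant and the one with the largest fitted change, was at 61.5, 79.98 and 69.4 TPM in control and 50.5, 54.3 and 60.4 TPM in depleted libraries. Its groups were separate by a narrow gap, with a log2 change of -0.34 (SE 0.12, limma adjusted p = 0.0617). PWP2, the counterpart of yeast Utp1, was at 42.3 ± 2.25 and 41.9 ± 0.946 TPM, with an interval of -0.21 to 0.18 on the log2 scale. Wider intervals belonged to WDR36 (-0.86 to 0.68), WDR3 (-0.58 to 1.15) and UTP6 (-0.64 to 0.87). UTP18 had a log2 change of 0.30.

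In the UTP-C set, NOL6, the human counterpart of yeast Utp22, rose while RRP7A, whose counterpart is its partner in yeast, fell. NOL6 was at 18.3, 20.2 and 17.6 TPM in control and 25.4, 25.5 and 26.1 TPM in depleted libraries, a log2 change of 0.44 (SE 0.10, limma adjusted p = 0.0123). RRP7A was at 52.0, 63.6 and 57.7 TPM in control and 46.5, 43.97 and 46.2 TPM in depleted libraries, a log2 change of -0.33 (SE 0.10, limma adjusted p = 0.0329). The groups did not overlap for either gene. The RRP7A call held in 9 of 19 alternatives and was lost, among others, with median-of-ratios scaling (adjusted p = 0.204), and NOL6 was lost without RRN3 siRNA replicate 2 alone (adjusted p = 0.0643). RRP7A may share reads with its copy RRP7BP, listed at 12.05, 9.32 and 10.6 TPM in control and 5.05, 5.24 and 4.25 TPM in depleted libraries, so its level is uncertain. RRP36 had the highest mean over all 6 libraries of the 3, although RRP7A was higher in control (57.8 ± 5.78 against 52.2 ± 4.51 TPM). RRP36 was at 57.3, 50.9 and 48.6 TPM in control and 65.9, 60.2 and 54.1 TPM in depleted libraries, with overlapping groups and a log2 change of 0.20.

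Among the U3 and MPP10 proteins, 1 of 5 passed. IMP4, which with IMP3 helps U3 RNA pair with the precursor, was at 122, 124 and 116 TPM in control and 102, 98.0 and 105 TPM in depleted libraries. The groups did not overlap, and IMP4 fell by 0.24 on the log2 scale (SE 0.07, limma adjusted p = 0.0346). That call held in 7 of 19 alternatives and was lost when any 1 library was left out, with adjusted p between 0.0543 and 0.172. IMP3 was at 97.2 ± 6.07 and 101 ± 4.37 TPM, with overlapping groups. Within each library the ratio of IMP3 to IMP4 was 0.741, 0.823 and 0.855 in control and 0.948, 1.02 and 0.998 in depleted libraries, so the groups did not overlap in it. That ratio, and the others given, were chosen after the values were seen and were not tested. Because IMP4 alone already separated the groups, the ratio of IMP3 to IMP4 gives no independent support for the IMP4 call. UTP3 had the largest fitted change of the 5, 0.33 (limma adjusted p = 0.176), at 21.4, 17.8 and 17.03 TPM in control and 29.9, 22.0 and 20.1 TPM in depleted libraries. RRP9, which binds U3 RNA, was at 82.1 ± 6.28 and 81.4 ± 5.97 TPM, and MPHOSPH10, the MPP10 protein itself, at 3.10 ± 0.443 and 3.52 ± 0.855 TPM.

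Of the 10 processome enzymes and their direct partners, DDX49 and RCL1 rose, NAT10 fell and 7 did not pass. NAT10, which acetylates cytidines of 18S ribosomal RNA and of transfer RNA, was at 45.3, 43.8 and 38.5 TPM in control and 29.2, 26.5 and 23.7 TPM in depleted libraries. All depleted libraries were below all controls, and the gene fell by 0.67 on the log2 scale (SE 0.11, limma adjusted p = 0.00338). Over the 19 alternatives its change stayed between -0.74 and -0.59. NAT10 (ENSG00000135372) is annotated on chromosome 11 from 34105602 to 34147670 (GRCh38, plus strand). DDX49, a DEAD-box helicase, was at 31.9, 39.7 and 35.8 TPM in control and 50.02, 54.6 and 55.7 TPM in depleted libraries. The groups were separate, and the log2 change was 0.57 (SE 0.10, limma adjusted p = 0.00508), between 0.49 and 0.73 over the alternatives. DDX49 (ENSG00000105671) is annotated on chromosome 19 from 18919675 to 18928633 (GRCh38, plus strand).

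RCL1, the partner of the GTPase BMS1, was at 28.7, 31.8 and 23.1 TPM in control and 43.1, 37.5 and 36.7 TPM in depleted libraries. It rose by 0.48 on the log2 scale (SE 0.13, limma adjusted p = 0.0288), with separate groups. The call was lost without control replicate 1 or 3, without RRN3 siRNA replicate 2 and with no filter on low values (adjusted p = 0.0558, 0.0732, 0.0791 and 0.0589). BMS1 was at 9.45 ± 2.78 and 9.61 ± 4.89 TPM, with an interval of -0.77 to 0.70 on the log2 scale. DDX47, a helicase gene and the most abundant of the 10, was at 67.0, 52.3 and 52.1 TPM in control and 96.2, 71.3 and 62.1 TPM in depleted libraries. Of its depleted libraries 1 was below the highest control, the log2 change was 0.40 (limma adjusted p = 0.118), and it passed upward in 7 of 19 alternatives. FCF1, the counterpart of the yeast endonuclease Utp24, had 19.7 ± 1.502 and 25.2 ± 6.04 TPM. EMG1, a methyltransferase of 18S pseudouridine, had 40.2 ± 0.607 and 42.3 ± 1.504 TPM, with groups that did not overlap, a log2 change of 0.07 and limma adjusted p = 0.559. The helicase gene DHX37 and UTP14A, whose counterpart activates that helicase in yeast, had log2 changes of 0.06 and 0.00, and DDX52 had -0.17.

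Of the 12 other processome factors, AATF and NOP9 fell and 10 did not pass. AATF, also called Che-1, works in the processome with NGDN and is known as a partner of RNA polymerase II. It was at 82.4, 79.1 and 73.1 TPM in control and 30.2, 24.7 and 21.5 TPM in depleted libraries. Every depleted library was below every control. The mean went from 78.2 ± 4.73 to 25.4 ± 4.40 TPM (SD, n = 3 per group), a fall of 1.59 on the log2 scale (SE 0.13, limma adjusted p = 0.000133). It had the 119th lowest fitted change of 12157 genes, and over the alternatives the change lay between -1.72 and -1.46. AATF (ENSG00000275700) is annotated on chromosome 17 from 36948875 to 37056871 (GRCh38, plus strand). NGDN was at 30.3, 21.3 and 19.7 TPM in control and 28.9, 23.3 and 20.9 TPM in depleted libraries, so the groups overlapped (log2 change 0.05, limma adjusted p = 0.881).

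NOP9, an RNA-binding protein with pumilio-type repeats, was at 27.6, 29.5 and 26.4 TPM in control and 21.3, 20.7 and 19.9 TPM in depleted libraries. It fell by 0.41 on the log2 scale (SE 0.09, limma adjusted p = 0.0136), with separate groups. The call was lost with median-of-ratios scaling and without RRN3 siRNA replicate 2 or 3 (adjusted p = 0.0565, 0.0686 and 0.0508). UTP23 and UTP11 were lower in every depleted library than in any control but did not pass, with log2 changes of -0.52 and -0.32 (limma adjusted p = 0.0623 and 0.0818). For UTP11 the gap was very narrow, with 33.79 TPM in RRN3 siRNA replicate 1 against 33.85 TPM in control replicate 2. UTP23 was at 16.2, 11.1 and 14.8 TPM in control and 10.4, 10.3 and 7.60 TPM in depleted libraries. It passed downward in 8 of 19 alternatives, and UTP11 in 5. UTP25 and ESF1 had log2 changes of 0.51 and 0.38 at low levels, 2.85 ± 0.684 and 4.64 ± 1.85 TPM for UTP25. DCAF13 and KRR1 had 0.32 and 0.21. NOP14 and NOC4L, whose counterparts form a pair in yeast, had intervals of -0.25 to 0.27 and -0.17 to 0.25 on the log2 scale. UTP20, a large scaffold, was at 1.72 ± 0.449 and 1.41 ± 0.770 TPM.

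The 8 late factors act on the pre-40S particle. RRP12, BYSL and PNO1 rose, NOB1 fell and 4 did not pass. RRP12, a helical-repeat protein of pre-40S export, was at 33.3, 34.4 and 33.1 TPM in control and 55.2, 54.5 and 57.5 TPM in depleted libraries. The libraries of each group lay close together and the groups far apart. RRP12 rose by 0.71 on the log2 scale (SE 0.08, limma adjusted p = 0.000519), between 0.65 and 0.85 over the alternatives. RRP12 (ENSG00000052749) is annotated on chromosome 10 from 97356358 to 97426076 (GRCh38, minus strand). BYSL, bystin, was at 66.5, 65.3 and 68.0 TPM in control and 82.4, 87.6 and 106 TPM in depleted libraries, a log2 change of 0.45 (SE 0.10, limma adjusted p = 0.0136). Its call was lost without control replicate 2 alone (adjusted p = 0.0526).

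NOB1, the endonuclease that makes the final cut of 18S ribosomal RNA, was at 145, 151 and 143 TPM in control and 117, 106 and 111 TPM in depleted libraries. It fell by 0.39 on the log2 scale (SE 0.07, limma adjusted p = 0.00491), a call lost with median-of-ratios scaling alone (adjusted p = 0.0742). PNO1, its binding partner on the particle, was at 29.9, 26.6 and 29.2 TPM in control and 46.8, 37.8 and 34.8 TPM in depleted libraries. It rose by 0.46 on the log2 scale (SE 0.12, limma adjusted p = 0.0274). The PNO1 call was lost without control replicate 2 or 3, without RRN3 siRNA replicate 2 and with no filter on low values (adjusted p = 0.0970, 0.0667, 0.0753 and 0.0534). Within each library the ratio of PNO1 to NOB1 was 0.206, 0.176 and 0.204 in control and 0.401, 0.356 and 0.313 in depleted libraries. The ratio was higher in every depleted library than in any control. PNO1 alone was higher and NOB1 alone lower in every depleted library than in any control, so the separation of the ratio was fixed by them. It adds nothing to their calls. The kinase genes RIOK1 and RIOK2 had log2 changes of -0.22 and 0.11, LTV1, an export adaptor, had 0.27 and TSR1, a GTPase-like factor, 0.34.

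Some values are uncertain because exons overlap those of a gene on the other strand and no source says whether strand was used in counting. At least 15% of exon bases overlapped a gene of 1 TPM or more in 7 of the 50. Overlapping genes without a listed level were not counted. Among them were AC092115.3 over 20.2% of NOB1, AC105020.6 over 22.0% of IMP3 and SPAG17 over 17.1% of WDR3. AL049844.3, on the same strand, covered 27.7% of LTV1. Smaller overlaps with abundant genes can also matter. UTP23, with a mean of 11.7 TPM, overlapped RAD21 (9.86% of bases, mean 26.3 TPM) and EIF3H (2.09%, mean 292 TPM). The shares of the 7 were 49.5% for EMG1 with LPCAT3, 32.4% for NOP9 with CIDEB, 31.2% for IMP3 with SNX33, 23.2% for HEATR1 with LGALS8, 20.7% for TSR1 with SRR, 17.1% for NOP14 with NOP14-AS1 and 15.9% for RRP7A with SERHL.

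How steady a gene was between libraries of 1 group went with the GC content of its transcript. Of the 26 genes under 45% GC, 23 had their highest control value in replicate 1 and all 26 had their highest depleted value in replicate 1. Of the 24 with 45% or more, these counts were 9 and 12. Over all genes tested, replicate 1 was the highest for 53.3% in control and for 70.5% in depleted libraries. The median coefficient of variation was 20.4% in control and 31.5% in depleted libraries for the GC-poor genes, and 7.48% and 6.48% for the others. Across the 50 genes, GC content and the deviation from the group mean had a Pearson correlation of -0.75 in control replicate 1 and -0.74 in RRN3 siRNA replicate 1, and of 0.83 in control replicate 2 and 0.76 in RRN3 siRNA replicate 3. Over all genes tested these were -0.45, -0.50, 0.41 and 0.45. They are across genes of 1 library, which are not independent replicates.

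**Figure D4:**
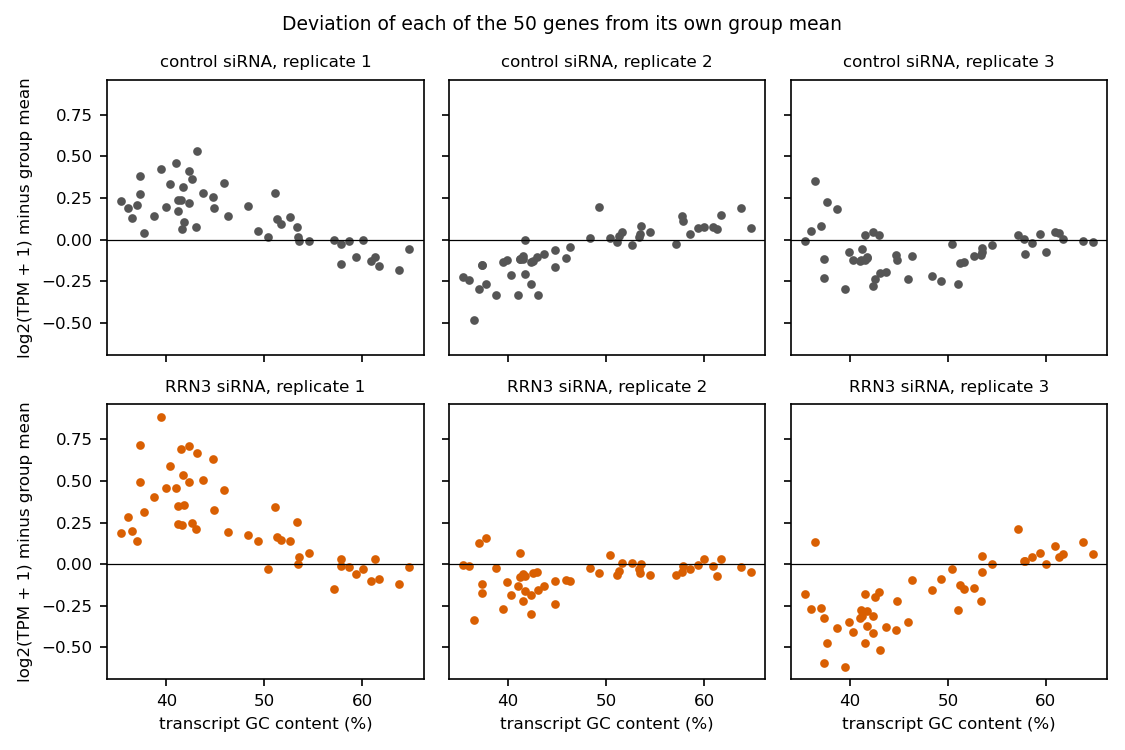
Deviation of each of the 50 genes from its own group mean (log2(TPM + 1) scale) against the GC content of its longest annotated transcript (%), with 1 panel per library. In both libraries numbered 1 the genes under 45% GC lie mostly above 0, while GC-rich genes stay nearer 0.

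Of the 17 genes with the lowest GC content (35.4% to 41.7%) 1 passed, PNO1, and of the 17 with the highest (51.6% to 64.8%) 10 passed, 4 upward and 6 downward. Of all tested genes in those GC ranges, 5.41% rose and 9.38% fell in the lower and 14.5% rose and 27.03% fell in the higher. The median log2 change was 0.27 in the GC-poor genes and -0.01 in the GC-rich, beside 0.01 and -0.11 over all tested genes of the same ranges. With the GC trend removed all 6 risers remained, with DCAF13, DDX47, DHX37, ESF1, FCF1, NOC4L, NOL11, RRP36, TSR1, UTP25, UTP3 and WDR43 added. AATF, NAT10, NOB1 and NOP9 remained among those that fell, with UTP11 and UTP23 added, while IMP4 and RRP7A no longer passed (adjusted p = 0.0772 and 0.0659).

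**Figure D5:**
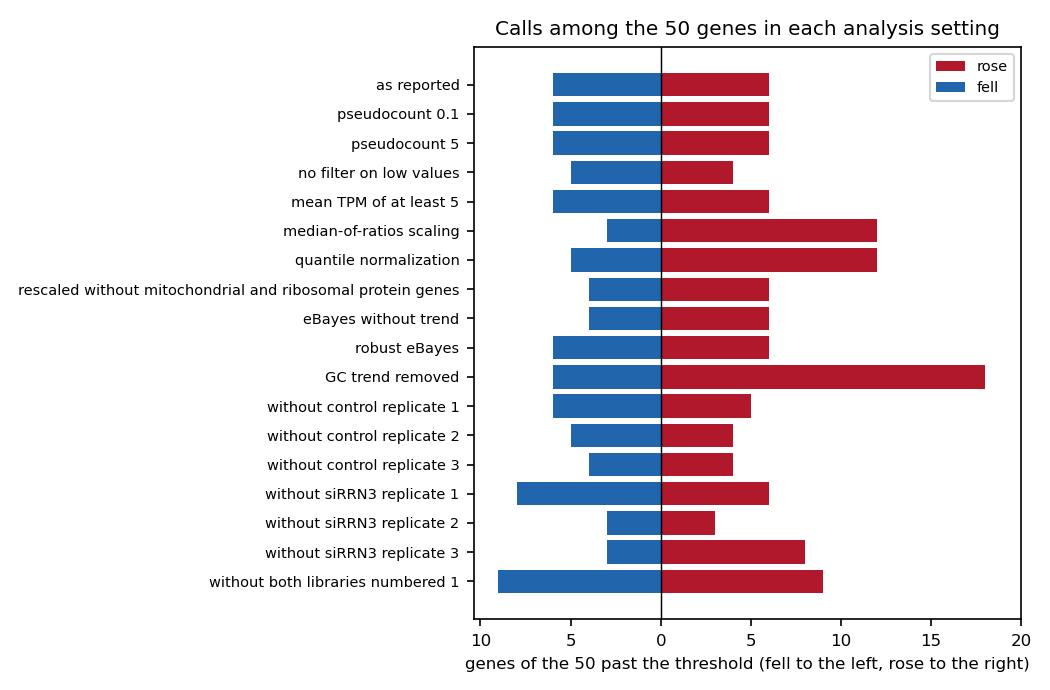
Number of the 50 genes that rose or fell at an adjusted p under 0.05 as reported and in alternative settings. Fits with a replicate block, which gave up to 20 risers, are not shown. The count of risers is 6 as reported, 12 with median-of-ratios or quantile scaling, 18 with the GC trend removed and 3 without RRN3 siRNA replicate 2.

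Another 35 genes of the same pathway were listed for comparison, and all were measured. Of these 4 rose, 5 fell and 26 did not pass, with a median log2 change of 0.00. The shares were 11.4% rising and 14.3% falling, beside 11.2% and 19% of all genes tested. RIOK3, an atypical kinase, rose from 9.27 ± 0.843 to 21.8 ± 5.37 TPM, and WDR46, the counterpart of yeast Utp7, from 60.7 ± 3.49 to 76.0 ± 2.67 TPM. KRI1 rose from 24.6 ± 2.84 to 33.6 ± 3.02 TPM and PDCD11, the counterpart of yeast Rrp5, from 53.7 ± 7.71 to 71.0 ± 5.10 TPM. FBL, fibrillarin, the methyltransferase of box C/D particles, fell from 574 ± 43.3 to 338 ± 19.6 TPM, a log2 change of -0.76 (limma adjusted p = 0.000470). EIF4A3, a helicase that also marks exon junctions, fell from 325 ± 23.8 to 197 ± 17.4 TPM, C1orf131 from 9.86 ± 1.11 to 5.69 ± 0.798 TPM and TSR2, a carrier of the ribosomal protein RPS26, from 16.3 ± 0.513 to 12.1 ± 0.383 TPM. The other that fell was BUD23, an 18S methyltransferase. The counts were 1 and 3 without RRN3 siRNA replicate 2, and 1 rose without control replicate 3. Without control replicate 2, 2 rose and 3 fell, 2 rose without RRN3 siRNA replicate 1, and 3 fell without control replicate 1 or RRN3 siRNA replicate 3. Of 54 genes of 60S assembly, 10 rose (18.5%) and 4 fell (7.41%), against the same background, with a median log2 change of 0.18.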

How the data were processed

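RNA sequencing gave 6 libraries of HCT116 cells, 3 per group, with groups and replicate numbers taken from the labels. The deposited table holds the authors' TPM per gene symbol and library, summing to 991305 to 992042 per library. STAR, Salmon and GRCh38 are named in the submitters' processing notes without roles or versions. Per the labels' protocols the RNA was poly(A) RNA and Ribo-Zero removed rRNA. TPM keeps no depth, so the depth is unknown and no counting intervals are given.

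Here log2(TPM + 1) was fitted with limma (version 3.58.1, R 4.3.3) for 12157 genes with a mean of at least 1 TPM, with the group alone in the model, a mean-variance trend and Benjamini-Hochberg adjustment over all genes at 0.05. Changes of low genes are understated on this scale. The fit was tested on simulated data with noise independent between genes, so that test does not cover deviations that genes share within a library. GENCODE release 29 (GRCh38), joined by symbol, supplied coordinates, exons and the GC content of the longest transcript. GC trends came from a loess curve per library (span 0.3). Promoter windows came from RefSeq (GRCh38.p14). Python 3.11.15, pandas 2.3.3 and matplotlib 3.10.9 were used.

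The 50 genes, the other lists, the motifs and the alternatives were chosen with earlier results of these data known. Genes past the threshold are given in every library, as are the gene with the highest mean over all 6 libraries and the one with the largest change of each role. Of the further pathway genes, the 4 per direction with the smallest adjusted p are given, and BUD23 was named after its values were seen, as were NGDN and UTP23 in every library. The design text calls the replicates biological. Each limma p-value sets the group difference against the spread between these samples, moderated over the genes tested.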

Additional observations from a re-analysis of the deposited data

How the results depend on the processing

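Pseudocounts of 0.1 and 5, a minimum mean of 5 TPM and robust moderation left 6 of the 50 rising and 6 falling, and none of the 12 called genes changed sign in any of the 19 alternatives. The log2 change of RRN3 lay between -3.40 and -1.70. Median-of-ratios scaling gave 12 rising and 3 falling among the 50, 7 and 3 among the 35 further pathway genes, and 2056 rising over all genes. Quantile normalization gave 12 rising among the 50, 7 and 3 among the further genes, and 2205 rising over all. Removal of the GC trend gave 18, 8 and 2746 rising in the same order. The cause was not tested. Leaving out each library in turn gave 3 to 8 rising and 3 to 8 falling among the 50, 1 to 4 and 3 to 7 among the further genes, and 788 to 1273 and 1452 to 3000 over all genes, with the lowest counts over all genes without RRN3 siRNA replicate 2 and 893 rising without control replicate 3. The median log2 change of the 50 then ranged from 0.01 to 0.20. Without both libraries numbered 1, 49 of the 50 were tested, of which 9 rose and 9 fell. Over all genes 1741 rose and 3030 fell in that setting.

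Deviations of same-numbered libraries correlated across genes at 0.42, 0.095 and 0.16 for replicates 1, 2 and 3, and control replicate 2 correlated best with RRN3 siRNA replicate 3 (0.19), so the numbers were not taken as pairs. Across the 50 genes alone the same-numbered correlations were 0.87, 0.38 and 0.41, and control replicate 2 again correlated best with RRN3 siRNA replicate 3 (0.59). With a replicate block 15 of the 50 rose and 9 fell, adding DCAF13, DDX47, FCF1, NOL11, TSR1, UTP18, UTP25, UTP3 and WDR43 upward and TBL3, UTP11 and UTP23 downward. In that fit 8 further genes rose and 2295 genes rose over all. With the block and removal of the GC trend, 20 of the 50 rose and 8 fell, 11 further genes rose and 3104 genes rose over all. Depth is unknown, and genes at a few TPM, such as ESF1, UTP20 and RIOK2, are measured least precisely.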

Other observations

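Genes near AATF were looked at after its fall was seen. Within 1 Mb on either side 13 other genes were tested, of which 3 fell and 2 rose, with log2 changes from -1.29 to 1.08 and a median of -0.13. Over all genes tested 19% fell and 11.2% rose, so both counts are near the background.

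The ratio of NOL6 to RRP7A within a library was 0.352, 0.318 and 0.305 in control and 0.547, 0.579 and 0.564 in depleted libraries, so the groups did not overlap. That separation was fixed by the genes themselves, because NOL6 was higher and RRP7A lower in every depleted library than in any control. The ratio of RCL1 to BMS1 was 2.28, 3.83 and 3.12 in control and 2.83, 5.28 and 5.65 in depleted libraries, and the groups overlapped. Both pairs were chosen after the values were seen, and no test was made.

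Summed over the 50 genes, the level was 1826, 1732 and 1661 TPM in control and 1958, 1683 and 1647 TPM in depleted libraries, so the groups overlapped. The highest sum of each group was in replicate 1.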
